A study of Mus musculus with 6 samples.

Results

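Erythroid progenitors that carried Klf1 transcripts without platelet transcripts were described in single-cell RNA sequencing of blood progenitors from 3 mice labelled Stag2 KO and 3 mice labelled Stag2 wt (KO1 to KO3 and WT1 to WT3). All 6 samples were lineage-negative haematopoietic stem and progenitor cells (Lin- HSPC), the fraction that lacks surface markers of mature blood cells. Stag2 is a part of cohesin, a protein ring that keeps sister chromatids joined and forms loops in chromatin. The labels name no strain, age, allele or method of knockout.

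Cells were selected on their own unique molecular identifier (UMI) counts. A cell needed at least 500 detected genes, at least 1 Klf1 UMI, at least 3 UMIs over Car1, Ermap, Epor and Aqp1, at most 1 UMI over the platelet genes Pf4, Gp1bb, Gp9 and Gp5, and under 2% of its UMIs from the adult globin genes Hba-a1, Hba-a2, Hbb-bt and Hbb-bs. The rule took 653 of 24307 cells with at least 500 genes, out of 25636 deposited cells. Values listed for a genotype stand in the order of its samples 1, 2 and 3. There were 86, 47 and 66 such cells in the KO mice and 78, 146 and 230 in the WT mice. Their UMIs summed to 848811, 446405 and 695878 in KO and to 949606, 1687843 and 2239501 in WT. KO2 was therefore the shallowest library for these cells and WT3 the deepest.

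Erythroid cells arise from progenitors that first share transcription factors with megakaryocytes, the platelet-forming cells, and then commit to the red cell fate. Klf1 is a zinc finger factor that binds CACCC-type elements and activates red cell genes, and it acts with Gata1, which binds GATA elements. Epor is the receptor for erythropoietin, the hormone that keeps committed erythroid cells alive, Car1 is a carbonic anhydrase of early erythroid cells, Aqp1 is a water channel, and Ermap is an erythroid membrane-associated protein. Globin and haem synthesis genes reach high levels only later, in erythroblasts.

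The promoters of 5 genes are shown because they belong to the gene that defines these cells, to the hormone receptor in the rule, and to genes with a lower level in KO cells. Each sequence covers 250 bases before to 50 bases after the RefSeq start on GRCm38.p6, 5′ to 3′ along the gene. They lie at chr8:84901732-84902031 on the plus strand (Klf1), chr9:21963527-21963826 on the minus strand (Epor), chr4:134864286-134864585 on the plus strand (Rhd), chr8:94178839-94179138 on the plus strand (Mt1) and chr8:94172368-94172667 on the plus strand (Mt2). Capitals mark matches on either strand to the GATA motifs AGATAA or TGATAA, to the CACCC-type motif CCNCNCCC bound by Klf1 family factors, or to TGCNCNC. The last is a looser form of the core of the metal response element, through which metals induce metallothioneins. It accepts bases that the core does not, so a match need not be that core.
Klf1: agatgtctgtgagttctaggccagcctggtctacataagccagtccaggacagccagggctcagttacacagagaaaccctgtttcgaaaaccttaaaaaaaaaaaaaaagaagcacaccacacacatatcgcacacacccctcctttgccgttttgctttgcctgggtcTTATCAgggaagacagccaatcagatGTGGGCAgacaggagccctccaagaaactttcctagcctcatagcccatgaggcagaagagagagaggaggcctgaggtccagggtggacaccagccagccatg
Epor: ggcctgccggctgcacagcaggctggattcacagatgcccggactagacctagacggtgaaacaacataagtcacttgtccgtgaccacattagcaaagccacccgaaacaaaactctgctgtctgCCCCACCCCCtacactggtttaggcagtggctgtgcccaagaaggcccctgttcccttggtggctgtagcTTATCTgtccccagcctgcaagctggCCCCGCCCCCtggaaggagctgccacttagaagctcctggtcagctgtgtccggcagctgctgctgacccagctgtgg
Rhd: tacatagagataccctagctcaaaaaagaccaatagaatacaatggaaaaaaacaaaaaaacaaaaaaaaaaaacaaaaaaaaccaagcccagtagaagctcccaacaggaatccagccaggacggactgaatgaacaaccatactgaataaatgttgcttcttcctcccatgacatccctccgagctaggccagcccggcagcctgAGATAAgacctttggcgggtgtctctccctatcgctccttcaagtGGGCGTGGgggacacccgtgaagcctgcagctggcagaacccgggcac
Mt1: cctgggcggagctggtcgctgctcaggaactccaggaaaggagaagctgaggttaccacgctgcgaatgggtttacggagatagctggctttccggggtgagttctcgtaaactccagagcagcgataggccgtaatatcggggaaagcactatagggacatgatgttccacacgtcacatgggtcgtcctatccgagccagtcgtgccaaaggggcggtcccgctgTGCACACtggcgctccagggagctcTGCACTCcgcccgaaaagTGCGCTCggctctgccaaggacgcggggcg
Mt2: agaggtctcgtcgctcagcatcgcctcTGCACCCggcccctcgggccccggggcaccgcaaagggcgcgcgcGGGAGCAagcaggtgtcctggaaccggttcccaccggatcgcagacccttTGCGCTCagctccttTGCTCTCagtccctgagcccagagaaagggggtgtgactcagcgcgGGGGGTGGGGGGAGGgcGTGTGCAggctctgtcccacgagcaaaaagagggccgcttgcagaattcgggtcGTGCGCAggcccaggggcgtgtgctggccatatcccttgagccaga
Klf1 held TGATAA 80 bases before its start, on the opposite strand. Epor held AGATAA 54 bases before its start on the opposite strand, and Rhd held it 43 bases before its start on its own strand. The promoters of Lyl1, Slc38a5 and Hebp1, genes also lower in KO cells, were scanned too and are not shown. None of them held a GATA match. A GATA match was in 18.6% of the 32851 promoters in the table, so such a match is common. CCNCNCCC was in 49.5% of them and TGCNCNC in 51.03%, and Mt1 held 3 and Mt2 held 6 matches to TGCNCNC. Overlapping matches were each counted, and matches to different motifs could share bases. The matches describe letters in these windows and do not show binding.

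Levels are given as CPM, UMIs summed over the cells of a sample and scaled to a common total with the sample's normalization factor. The genes of the rule chose the cells, so their levels are descriptions. Car1 stood at 2950, 2237 and 2504 CPM in KO and at 2991, 2724 and 2446 CPM in WT. The other kept cells averaged 57.6 CPM of Car1 in KO and 53.7 CPM in WT. Klf1 was at 230, 249 and 251 CPM in KO and at 235, 270 and 309 CPM in WT. Aqp1 was at 187, 118 and 184 CPM in KO, all below the 250, 294 and 252 CPM in WT. Ermap was at 87.1, 54.3 and 57.5 CPM in KO, also all below the 94.4, 96.4 and 105 CPM in WT. Epor was at 52.7, 34.0 and 33.7 CPM in KO and at 52.7, 53.6 and 55.1 CPM in WT, so that KO1 stood with the WT samples. Car1 and Klf1 overlapped between the genotypes, whereas Aqp1 and Ermap were lower in every KO sample.

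Several of the other leading genes fitted the label of an early, pre-haemoglobin erythroid cell. Among genes at 100 CPM or more, the 15 highest by fold over the other kept cells included Mt2, a metallothionein (22.5-fold), Tspo2, an erythroid relative of the mitochondrial translocator protein (19.2-fold), and Blvrb, biliverdin reductase B (8.39-fold). Mfsd2b, the sphingosine 1-phosphate exporter of red cells and platelets, was 8.09-fold higher and Car2, a second carbonic anhydrase, 7.78-fold higher. Gata1 was 5.64-fold higher, at 94.0 to 104 CPM in KO and 108 to 118 CPM in WT. Also among the 15 were Ces2g (14.0-fold), Fam132a (5.95-fold), Clec4d (5.80-fold), Gstm5, Tnfaip2 and Vamp5, which were not read as erythroid markers. Alas2, which starts haem synthesis in erythroblasts, reached at most 2.29 CPM in any KO sample and 0.595 CPM in any WT sample. The rule's globin limit keeps out cells of the haemoglobin-making stage, so their near absence follows in part from the selection. Hba-a1 lay between 12.6 and 113 CPM in KO and between 47.0 and 241 CPM in WT, limited by the rule. Markers of other cells were also present. The low-count filter was passed by 10 of 15 neutrophil, 5 of 12 basophil and mast cell, 5 of 11 monocyte, 3 of 11 dendritic cell, 2 of 13 T and NK cell, 2 of 8 eosinophil and 0 of 10 B cell markers. The neutrophil markers summed to at most 3205.5 CPM in KO and 1023 CPM in WT, and the basophil and mast cell markers to at most 1090 CPM in KO and 1315 CPM in WT, below those lists' sums in the other kept cells.

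**Figure D1:**
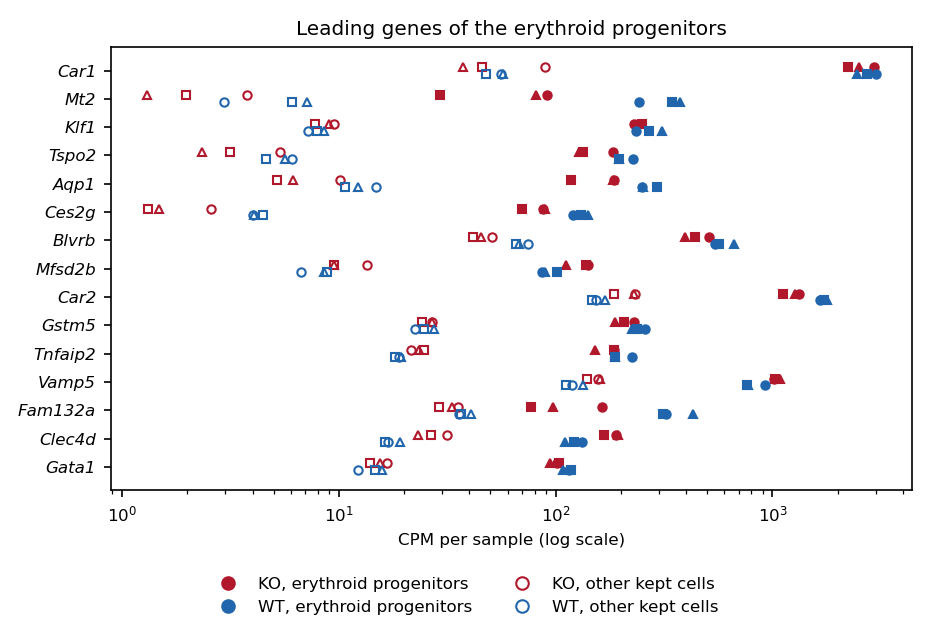
Levels of the 15 leading genes in each sample, in CPM on a log scale, with filled symbols for the erythroid progenitors, open symbols for the other kept cells, red for KO and blue for WT (circle, square and triangle for samples 1, 2 and 3). The genes were chosen by their fold over the other kept cells, so each lies to the right of its open symbols. The fold was 43.6 for Car1 and 5.64 for Gata1, and Car1, Klf1 and Aqp1 also chose the cells. Mt2 and Fam132a show the KO samples to the left of the WT samples.

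KO samples held a smaller share of these cells. They were 1.92%, 1.93% and 1.76% of the kept cells in KO, against 3.17%, 3.31% and 3.395% in WT. The means were 1.87% ± 0.0972 in KO and 3.29% ± 0.113 in WT (SD, n = 3 each), and the groups did not overlap. The share of kept cells with any Klf1 UMI did overlap, at 5.79%, 5.59% and 5.52% in KO and 5.57%, 6.28% and 5.86% in WT. No test is given, since the levels of genes in the rule set which cells enter it. Depth per cell also differed: the other kept cells had medians of 5769 to 6009 UMIs in KO and 3514 to 4868 UMIs in WT, whereas the erythroid progenitors had medians of 7571 to 9167 UMIs in KO and 7446 to 9764 UMIs in WT. With every cell thinned to 2000 UMIs the shares were 0.820% ± 0.176 in KO and 1.44% ± 0.624 in WT, and the groups overlapped (0.649% to 1.001% in KO, 0.782% to 2.02% in WT).

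Cells that met the erythroid criteria and had at least 2 platelet gene UMIs went the other way. They were 1.34%, 0.905% and 0.7996% of kept cells in KO, against 0.488%, 0.634% and 0.236% in WT. Of the erythroid progenitors and these erythroid-platelet cells together, the platelet-positive share was 41.1%, 31.9% and 31.3% in KO and 13.3%, 16.1% and 6.50% in WT, with no overlap. After thinning to 2000 UMIs 1, 1 and 2 of these cells remained in KO and none in WT, where exact upper limits were 0.169%, 0.0923% and 0.0745%, so no difference was detectable at that depth. The 2 sets together were 2.89% ± 0.355 of kept cells in KO and 3.74% ± 0.172 in WT (SD, n = 3 each). A single platelet UMI, which the rule allows, was present in 47.7%, 46.8% and 45.5% of erythroid progenitors in KO and in 28.2%, 31.5% and 20.9% in WT. Among cells with Cd3 transcripts, which should lack platelet RNA, 1.15% to 4.08% in KO and 1.31% to 2.37% in WT had a platelet UMI, at median depths of 3391 to 3497 and 2483 to 3576 UMIs. After thinning to 2000 UMIs, 35.7%, 33.3% and 10.3% of the KO erythroid progenitors kept 1 platelet UMI, of 42, 15 and 29 cells. In WT these shares were 5.88%, 6.56% and 6.00%, of 17, 61 and 100 cells. Gp5, a subunit of the platelet von Willebrand factor receptor, was at 28.7, 20.4 and 25.2 CPM in KO and 8.78, 16.1 and 10.7 CPM in WT.

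Some cells lay close to the limits. At exactly 3 erythroid UMIs there were 9 KO and 22 WT cells inside, while 15 KO and 18 WT cells with 2 UMIs fell outside. With 2 platelet UMIs, 47 KO and 38 WT cells fell just outside, beside 93 KO and 116 WT cells with 1 platelet UMI inside. With exactly 1 Klf1 UMI there were 74 KO and 158 WT cells inside, and 74 KO and 141 WT cells met every other limit with no Klf1 UMI. Globin at or over the limit removed 2 KO and 10 WT cells.

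**Figure D2:**
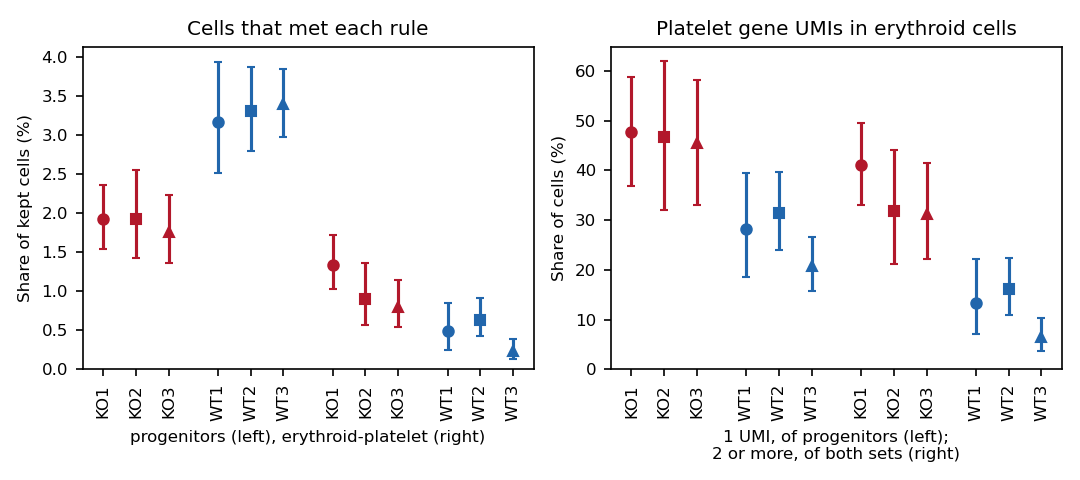
Shares of cells by sample with exact 95% binomial intervals, red for KO and blue for WT. The left panel gives erythroid progenitors and erythroid-platelet cells as shares of kept cells, with all KO points below the WT points for the progenitors and above them for the erythroid-platelet cells, and the right panel gives progenitors with 1 platelet UMI and erythroid-platelet cells among both sets, with all KO points above the WT points.

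Stag2 transcripts were lower in the KO erythroid progenitors but did not pass the test across all genes. The level was 28.7, 36.2 and 12.6 CPM in KO, against 50.5, 44.0 and 43.6 CPM in WT. All KO samples were below all WT samples, and the log2 fold change of -0.87 ± 0.26 (SE) had an edgeR adjusted p of 0.137. In the other kept cells Stag2 fell by 1.06 on the log2 scale (edgeR adjusted p = 4.72e-04), and the difference between the 2 cell sets was 0.17 (edgeR adjusted p = 0.81). The tags come from the 3′ ends of transcripts, and the labels do not name the deleted part, so remaining counts do not measure intact transcript. Stag1, whose product can take the place of Stag2 in cohesin, was at 39.0, 56.6 and 43.5 CPM in KO and 28.5, 36.9 and 31.6 CPM in WT (log2 fold change 0.45, edgeR adjusted p = 0.344). None of the 16 tested of 17 genes of cohesin and its regulators passed, and their median log2 fold change was 0.14.

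Across the transcriptome of these cells, 85 of 6456 tested genes passed the edgeR quasi-likelihood test at an adjusted p under 0.05, which is 1.32% of them. Of these, 29 were higher in KO (0.449%) and 56 were lower (0.867%), and 84 of 85 had KO and WT samples that did not overlap, as did 19.8% of all tested genes; a call with 3 against 3 samples nearly requires it. The 13 genes of the rule were left out of the test. The titles carry a code that begins with XA in all KO samples and WT1 and with other letters in WT2 and WT3; the labels do not say what it marks. With this prefix as a covariate, 8 genes passed, among them Ifitm1, Mt2, Cd24a, Aplp2, Gm2a, St8sia6 and Erh. All 85 kept their direction there and with the XA samples alone, where WT1 is the only WT sample. Both fits reuse the counts that gave the calls, so the kept directions are not separate support. Without WT3 the count was 29 and without WT2 it was 38, and 21 of the 85 genes passed without each library in turn.

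The largest falls included Ifitm1, Gstp1, Ctsl, Mt2 and Cd24a. Ifitm1, an interferon-inducible membrane protein, had 56.2, 54.3 and 81.3 CPM in KO and 767, 275 and 559 CPM in WT. Every KO sample was several-fold below the lowest WT sample (log2 fold change -3.03 ± 0.31, edgeR adjusted p = 1.82e-04). Its fall was of like size in the other kept cells, at -2.90 on the log2 scale. Cd24a, a glycosylphosphatidylinositol-anchored surface antigen used to stage erythroid cells, had 65.3, 36.2 and 36.5 CPM in KO and 215, 200 and 220 CPM in WT. The KO samples lay together far below the WT samples (-2.14 ± 0.18, edgeR adjusted p = 5.11e-05). In the other kept cells Cd24a changed by -0.34, and the difference between the 2 effects was -1.77 (edgeR adjusted p = 1.0e-06).

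Both metallothionein genes fell, Mt2 by more than Mt1. Mt2 had 91.7, 29.4 and 81.3 CPM in KO and 241, 346 and 377 CPM in WT, a difference of -2.17 ± 0.24 on the log2 scale (edgeR adjusted p = 3.31e-04). Mt1, chosen after its values were seen, had 354, 292 and 273 CPM in KO and 504, 654 and 685 CPM in WT (-1.001 ± 0.14, edgeR adjusted p = 0.00161). Neither gene overlapped between genotypes, and both are encoded on chromosome 8, at 94172664 to 94173568 and 94179082 to 94180327 on the plus strand of GRCm38. With the prefix as a covariate Mt1 no longer passed (-0.71, edgeR adjusted p = 0.162). Their promoters are among those printed above.

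Gstp1 and Ctsl fell by more than Mt2 on the log2 scale, at lower levels. Gstp1, a glutathione S-transferase with a near-identical neighbouring copy whose reads may be split, had 17.2, 4.53 and 7.01 CPM in KO and 47.2, 103 and 97.8 CPM in WT (-2.99 ± 0.38, edgeR adjusted p = 0.00122). Ctsl, the lysosomal protease cathepsin L, had 21.8, 6.79 and 4.21 CPM in KO and 73.5, 80.3 and 50.2 CPM in WT (-2.44 ± 0.36, edgeR adjusted p = 0.00427; -3.66 without KO1). KO1 was the highest KO sample for both genes, and still below every WT sample. Aplp2, an amyloid precursor-like membrane protein, had 22.9, 22.6 and 22.4 CPM in KO and 88.9, 72.0 and 88.9 CPM in WT (-1.87 ± 0.19, edgeR adjusted p = 1.82e-04). Kcng2, a potassium channel subunit (-1.94), Cenpv, a centromere protein (-1.73), and Slc38a5, an amino acid transporter (-1.61), also fell. Slc38a5 lost its call without KO1, KO3, WT2 or WT3 (edgeR adjusted p 0.0527 to 0.151). Hist1h2ap fell by 1.75 on the log2 scale and lost its call without WT2 (edgeR adjusted p = 0.0613) or WT3 (0.071); it has near-identical histone copies, so its reads are uncertain.

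Erh, a small conserved nuclear protein chosen after its values were seen, had 166, 188 and 154 CPM in KO and 333, 366 and 359 CPM in WT (-1.07 ± 0.12, edgeR adjusted p = 3.04e-04). The spread within each genotype was small beside the gap between them. Erh passed without each library in turn and with the prefix as a covariate (edgeR adjusted p = 0.0382).

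**Figure D3:**
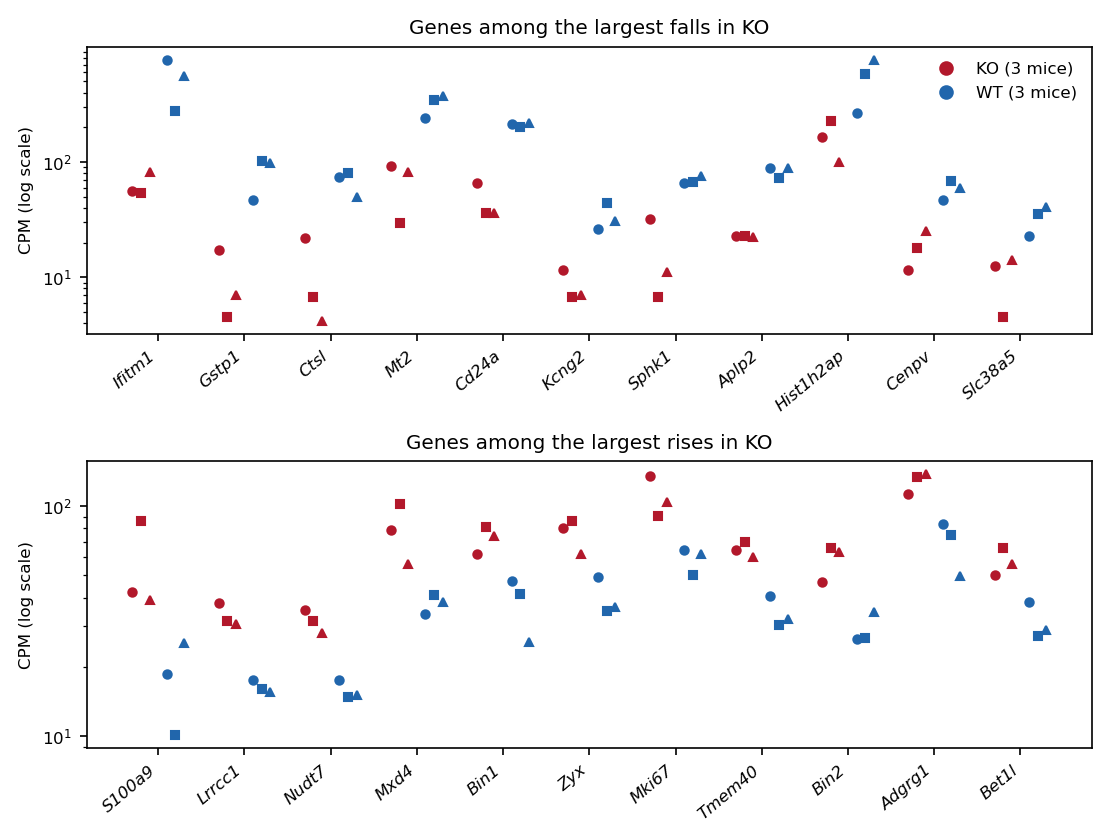
CPM on a log scale in each sample for genes among those with the largest falls and the largest rises, KO in red to the left of WT in blue (circle, square and triangle for samples 1, 2 and 3). No gene shown overlaps between the genotypes; the KO samples of Aplp2 lie within 22.4 to 22.9 CPM, and the rises shown are smaller, at 1.48 or less on the log2 scale.

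Several genes of the red cell membrane and surface fell in KO cells. Of 34 listed genes 21 were tested, and 5 fell and none rose, with a median log2 fold change of -0.45 over the tested members against 0.01 over all tested genes. Rhd, which encodes the Rh blood group protein, had 25.2, 15.8 and 21.03 CPM in KO and 69.1, 43.4 and 74.7 CPM in WT (-1.52 ± 0.27, edgeR adjusted p = 0.0121). Its call was lost without WT3 (edgeR adjusted p = 0.0734). Sphk1, a sphingosine kinase, had 32.1, 6.79 and 11.2 CPM in KO and 65.9, 66.7 and 76.0 CPM in WT (-1.88 ± 0.30, edgeR adjusted p = 0.00571; -2.88 without KO1). Atp1b2, a sodium pump subunit, had 52.7, 36.2 and 33.7 CPM in KO and 79.0, 102 and 91.6 CPM in WT (-1.13 ± 0.19, edgeR adjusted p = 0.00913). All KO samples lay below all WT samples for these 3 genes.

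Car2, a leading gene of these cells, fell by less and at a far higher level. It had 1322, 1121 and 1275 CPM in KO and 1656, 1725 and 1776 CPM in WT, a difference of -0.47 ± 0.09 on the log2 scale (edgeR adjusted p = 0.0198). In the other kept cells Car2 changed the opposite way, by 0.46, and the 2 effects differed by -0.91 (edgeR adjusted p = 3.94e-07). The call was lost without KO2 (edgeR adjusted p = 0.0524), WT2 (0.0808) or WT3 (0.076), and the direction turned in cells thinned to 2000 UMIs (0.09, edgeR adjusted p = 0.972). Fam132a, a secreted C1q and TNF-related protein now named C1qtnf12, was another leading gene that fell. It had 164, 77.0 and 96.8 CPM in KO and 324, 311 and 431 CPM in WT (-1.61 ± 0.21, edgeR adjusted p = 0.00127). Ces2g, a carboxylesterase, also fell (-0.66, edgeR adjusted p = 0.0334), but lost its call without KO1, KO2, KO3, WT2 or WT3 (0.0581 to 0.18).

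Of 25 listed erythroid transcription factors 21 were tested, 1 fell and none rose, with a median log2 fold change of 0.03. The factor that fell was Lyl1, a basic helix-loop-helix factor related to Tal1, at 43.6, 47.5 and 43.5 CPM in KO and 96.6, 95.8 and 68.0 CPM in WT (-0.94 ± 0.19, edgeR adjusted p = 0.0253). Its call was lost without KO1 (edgeR adjusted p = 0.0964), KO3 (0.0802), WT1 (0.0514) or WT2 (0.0991). On the log2 scale Gata1 differed by -0.19 (edgeR adjusted p = 0.588), Tal1 by 0.03 (0.969), Gfi1b by -0.39 (0.277) and Zfpm1 by 0.26 (0.497), and none of these passed. Gata2, which precedes Gata1 in erythroid commitment, had 159, 177 and 171 CPM in KO and 124, 124 and 103 CPM in WT. Its groups did not overlap, but it did not pass (0.53 ± 0.13, edgeR adjusted p = 0.0623); with doublets removed it did (0.58, 0.0279). The KO effect on Gata2 differed from that in the other kept cells, where it was -0.06 (difference 0.62, edgeR adjusted p = 0.00676).

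No gene of erythropoietin and Kit signalling passed among 13 tested of 27 listed, with 8 positive and 5 negative log2 fold changes. Kit, the stem cell factor receptor, had -0.29 (edgeR adjusted p = 0.486), and Dusp6, a phosphatase induced by the MAP kinase pathway, had 1.32 (0.077), and passed with doublets removed (0.0387) or with at least 5 erythroid UMIs (0.0464). No gene of haem synthesis and iron passed among 25 tested of 31 listed; 18 of the 25 had negative values and the median was -0.19. Tfrc, the transferrin receptor, had 16.0, 13.6 and 16.8 CPM in KO and 30.7, 28.0 and 26.7 CPM in WT (-0.83 ± 0.25, edgeR adjusted p = 0.138). Cpox, a late enzyme of haem synthesis, had -0.66 (0.147; 0.0395 without KO1), and Alad, an early one, -0.46 (0.101). Of 18 haemoglobin-stage erythroblast markers 14 were tested, and 2 fell, Car2 among them.

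Of 33 listed megakaryocyte genes that the rule did not use, 14 were tested, 1 rose and none fell, 12 had positive values, and the median was 0.59. Over all tested genes 0.449% rose, 0.867% fell and the median was 0.01. The following did not pass. Itga2b, the platelet integrin subunit, had 26.4, 36.2 and 29.4 CPM in KO and 21.95, 17.9 and 14.2 CPM in WT (0.79, edgeR adjusted p = 0.176). Plek, a platelet protein kinase C substrate, had 1.35 (0.107; 0.0372 with doublets removed), and F2r, a thrombin receptor, 0.62 (0.163). Because the rule caps platelet genes, and KO cells reached that cap more often, this list is not independent of how the cells were chosen. The low-count filter could also admit a gene of this list through its KO samples alone, so the signs and the median lean toward positive. Plek, for example, was at 18.3, 22.6 and 16.8 CPM in KO and 7.68, 10.7 and 4.45 CPM in WT.

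Of 31 listed stem and multipotent progenitor genes 15 were tested, with Adgrg1 higher and Ifitm1 lower. Adgrg1, an adhesion receptor of stem cells, had 113, 134 and 137 CPM in KO and 83.4, 75.0 and 49.8 CPM in WT (0.92 ± 0.18, edgeR adjusted p = 0.0223), and rose by 0.80 in the other kept cells. Its call was lost without KO3 (edgeR adjusted p = 0.0802), WT2 (0.0625) or WT3 (0.122). Sox4 (0.69, edgeR adjusted p = 0.0593) and Meis1 (1.07, 0.0826) had positive values that did not pass, and Cd34 stood at 10.3 to 15.8 CPM in KO and 8.33 to 14.3 CPM in WT. Sox4 passed with DESeq2 (adjusted p = 0.0288) and in edgeR with doublets removed (0.0164), with at least 5 erythroid UMIs (0.0342), without KO3 (0.0452) or without WT1 (0.008), and Meis1 without WT1 (0.048).

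Mki67, the proliferation antigen, rose with 135, 90.6 and 104 CPM in KO and 64.8, 49.995 and 62.2 CPM in WT (0.94 ± 0.17, edgeR adjusted p = 0.0139). It was the 1 riser of 23 tested G2/M genes (median 0.11), and its call was lost without KO1 (edgeR adjusted p = 0.0843), WT2 (0.0805) or WT3 (0.0658). None of 27 tested S phase genes passed, 19 had negative values, and the median was -0.13. Dut, which removes dUTP during DNA synthesis, had 332, 247 and 369 CPM in KO and 466, 438 and 465 CPM in WT (-0.52 ± 0.13, edgeR adjusted p = 0.0714; 0.0421 with doublets removed and 0.0452 without KO3). None of 8 tested D cyclins, their kinases and Cdk inhibitors passed; Cdk6 had 551, 575 and 416 CPM in KO and 381, 359 and 313 CPM in WT (0.55, edgeR adjusted p = 0.0572). Cdk6 passed with DESeq2 (adjusted p = 0.0301) and in edgeR with doublets removed (0.031), with at least 5 erythroid UMIs (0.0342), with 8 or more (0.0423) or without KO3 (0.0219). The immediate early genes, which rise with handling, had no member that passed among 7 tested, with a median of 0.01.

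Further rises were each about 2-fold. Mxd4, an antagonist of Myc, had 79.1, 102 and 56.1 CPM in KO and 34.0, 41.1 and 38.2 CPM in WT (1.002, edgeR adjusted p = 0.0223). Zyx, an adhesion plaque protein (0.95), Bin1 (0.97) and Bin2 (0.93), which shape membranes, Lrrcc1, a centrosomal protein (1.06), Nudt7, a peroxisomal coenzyme A hydrolase (1.03), Tmem40 (0.94) and Bet1l, a Golgi SNARE (0.88), had groups that did not overlap. Each of these lost its call without WT2 and without WT3 (edgeR adjusted p from 0.0514 to 0.22 over the libraries that ended a call). Akap13, a kinase anchor chosen after its values were seen, passed without each library in turn but not with the prefix as a covariate. It had 110, 109 and 108 CPM in KO and 61.5, 55.9 and 63.1 CPM in WT (0.85 ± 0.14, edgeR adjusted p = 0.00647).

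S100a9, a calcium-binding protein abundant in neutrophils, rose with 42.4, 86.0 and 39.3 CPM in KO and 18.7, 10.1 and 25.3 CPM in WT (1.48 ± 0.34, edgeR adjusted p = 0.0437), and its call was lost without KO1, KO2, WT1 or WT2 (0.0595 to 0.145). All 10 tested of 15 neutrophil markers had positive values, with a median of 1.14. The low-count filter could admit a marker of this list through its KO samples alone, so these signs lean toward positive. The summed level of that list was 533, 820 and 3205.5 CPM in KO and 293, 777 and 1023 CPM in WT, against 19849 to 23536 CPM in KO and 7501 to 15037 CPM in WT in the other kept cells. Neutrophil RNA was thus also higher in the surrounding KO cells, where S100a9 averaged 1654 CPM in KO and 344 CPM in WT. The part of free RNA or of mixed droplets in the S100a9 result was not tested. The summed monocyte markers stood apart in KO2, at 672 CPM, against 61.9 and 88.3 CPM in KO1 and KO3 and 177 to 245 CPM in WT. With doublets removed they summed to 62.1, 124 and 74.9 CPM in KO and 107, 167 and 129 CPM in WT. Basophil and mast cell markers summed to 203, 364 and 1090 CPM in KO and 626, 564 and 1315 CPM in WT. None of their 5 tested members passed, all 5 had negative values, and the median was -0.42. Here too the filter could admit a member through its WT samples alone, so the signs lean toward negative. Mcpt8, a basophil protease (-0.96, edgeR adjusted p = 0.317), passed without KO3 (-1.96, 0.0252), with doublets removed (-1.28, 4.16e-04), with 8 or more erythroid UMIs (-1.61, 3.33e-04) and with no platelet UMI (-1.77, 0.0191). Prss34, another basophil protease (-0.42, edgeR adjusted p = 0.753), passed with 8 or more erythroid UMIs (-1.04, 0.0256), and Fcer1a, a subunit of the IgE receptor, without KO3 (-2.75, 0.0215). With doublets removed the list summed to 209, 356 and 274 CPM in KO and 562, 356 and 554 CPM in WT.

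**Figure D4:**
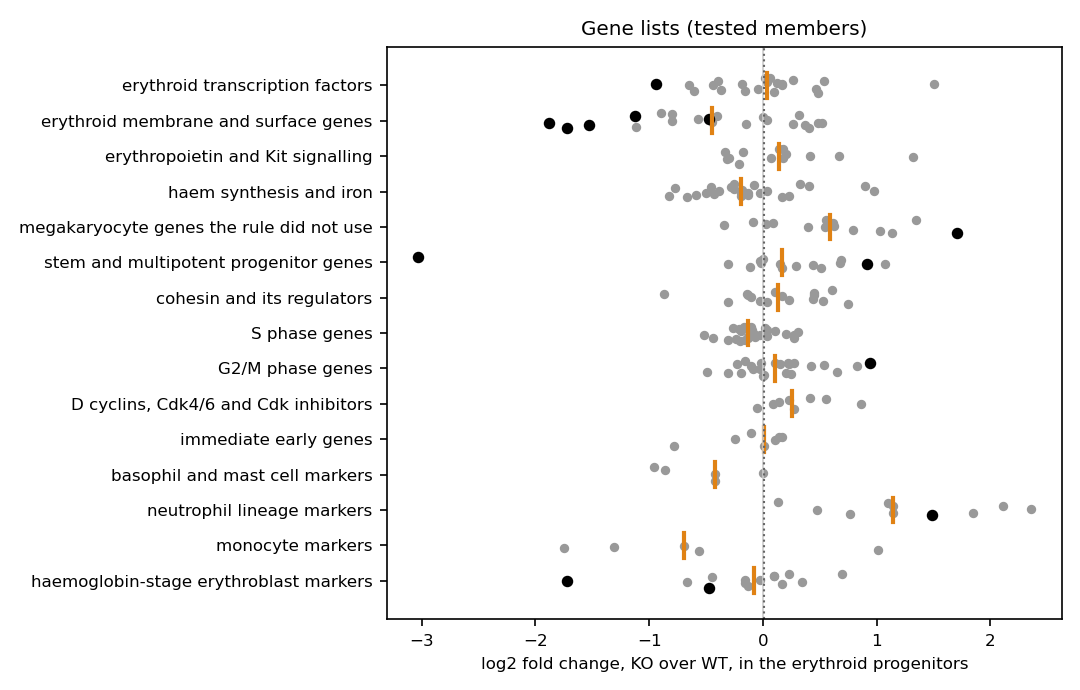
Log2 fold changes, KO over WT, of the tested members of each gene list with at least 5 of them; black points passed the edgeR test, grey points did not, orange bars are list medians, and the dotted line is the median of all tested genes (0.01). The red cell membrane list has 5 black points on the left and a median of -0.45, and the neutrophil list lies to the right with a median of 1.14. A neutrophil marker or a megakaryocyte gene could enter the test through its KO samples alone.

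The KO effect in the erythroid progenitors was set against that in the other kept cells of the same samples. Those pool every kept cell that failed the rule, so a difference does not show that an effect is particular to these progenitors. The difference passed for 135 of 6456 genes (2.09%) in edgeR, 77 toward higher and 58 toward lower in KO. With limma on each sample's own difference no gene passed, with 847 at an unadjusted p under 0.05 and a smallest adjusted p of 0.104. The other kept cells had 1485 calls among 12642 tested genes (11.7%), with KO above WT for 469 (3.71%) and below it for 1016 (8.04%). Of the 85 called genes, 74 had the same sign in the other kept cells, against 57.0% of all 6456, and 45 were also called there in that direction, against 5.90% of all 6456; both sets come from the same mice. The effects of 31 of the 85 differed between the sets in edgeR. Among the genes that differed, Fam132a fell by 1.61 here and had a log2 value of -0.22 elsewhere (difference -1.37, edgeR adjusted p = 1.82e-05), and Lyl1 had a difference of -1.14 (0.00233). Ctsl differed by -1.99 (0.002) and Mki67 by 0.88 (0.00426). Rhd and Atp1b2 changed by -1.62 and -1.60 in the other kept cells, at mean levels of only 0.835 and 0.93 CPM in KO and 2.82 and 2.85 CPM in WT.

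The cells were further split by the UMIs of the 4 erythroid genes into cells with 3 to 7 (low-erythroid) and cells with 8 or more (high-erythroid), with no correction for depth per cell. Low-erythroid cells were 23.3% ± 2.16 of the erythroid progenitors in KO and 16.7% ± 5.84 in WT (SD, n = 3 each), and the groups overlapped, with WT3 at 21.7% inside the KO range of 21.2% to 25.5%. They numbered 20, 12 and 14 cells in KO and 14, 15 and 50 cells in WT.

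In KO3 and WT3 the low-erythroid cells, taken as a sum, carried much basophil RNA, so the split is not read as a stage. Over all erythroid progenitors, cells marked as doublets held much of the basophil RNA in these samples. Without 3 such cells in KO3 and 14 in WT3, the basophil and mast cell markers summed to 274 and 554 CPM. With them the sums were 1090 and 1315 CPM. How many of these cells were low-erythroid was not counted. In low-erythroid cells Prss34 was at 131, 186 and 3195 CPM in KO and 358, 162 and 3032 CPM in WT, and Mcpt8 at 93.5, 217 and 1583 CPM in KO and 222, 210.2 and 1751 CPM in WT. Car1 in the same cells was at 617, 743 and 512 CPM in KO and 319, 516 and 632 CPM in WT, below both proteases in KO3 and WT3. All 12 basophil and mast cell markers together summed to 318, 511 and 5356 CPM in low-erythroid KO cells and 967, 526 and 5260 CPM in low-erythroid WT cells. In high-erythroid cells the sums were 193, 335 and 359 CPM in KO and 555, 564 and 764 CPM in WT, and Car1 was at 2462 to 3381 CPM in KO and 2714 to 3182 CPM in WT.

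Gata2 and Adgrg1 were higher in the low-erythroid cells of all 6 samples. Gata2 averaged 310 CPM in low-erythroid and 149 CPM in high-erythroid KO cells, and 255 and 98.7 CPM in WT cells; without KO3 and WT3 these were 337 and 143 CPM in KO and 240.4 and 109 CPM in WT. Adgrg1 averaged 233 and 112 CPM in KO and 121 and 62.7 CPM in WT, and without KO3 and WT3 183 and 115 CPM in KO and 139 and 71.4 CPM in WT.

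Genes that fell in KO included several with higher levels in high-erythroid cells. Mt2, Fam132a, Rhd and Car2 were higher there in all 6 samples. Mt2 averaged 3.16 CPM in low-erythroid and 79.5 CPM in high-erythroid KO cells, and 22.4 and 351 CPM in WT cells. Fam132a averaged 48.9 and 125 CPM in KO cells, and 46.5 and 386 CPM in WT cells. Rhd was at 0 in low-erythroid KO cells and at 24.5 CPM in high-erythroid ones, and at 2.41 and 68.4 CPM in WT cells. Cd24a averaged 28.1 and 49.4 CPM in low- and high-erythroid KO cells and 99.97 and 220 CPM in WT cells.

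Ifitm1 was higher in the low-erythroid cells of 5 of 6 samples, with a wide spread. It was at 243, 46.4 and 228 CPM in low-erythroid KO cells and 3103, 478 and 1567 CPM in low-erythroid WT cells. In high-erythroid cells it was at 31.0, 55.0 and 57.6 CPM in KO and 447, 260.2 and 419 CPM in WT. Every KO sample was below every WT sample at both levels, and the part of the basophil RNA in the low-erythroid values was not tested.

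Within high-erythroid cells alone 65 of 5965 genes passed. The 84 called genes tested there kept their direction, with log2 fold changes of -2.11 for Cd24a, -2.10 for Mt2 and -1.45 for Rhd. These cells gave most of the UMIs behind the calls, so a kept direction was nearly fixed in advance. Within low-erythroid cells none of 1256 tested genes passed in edgeR, with 84 at an unadjusted p under 0.05; other tools were not run there.

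**Figure D5:**
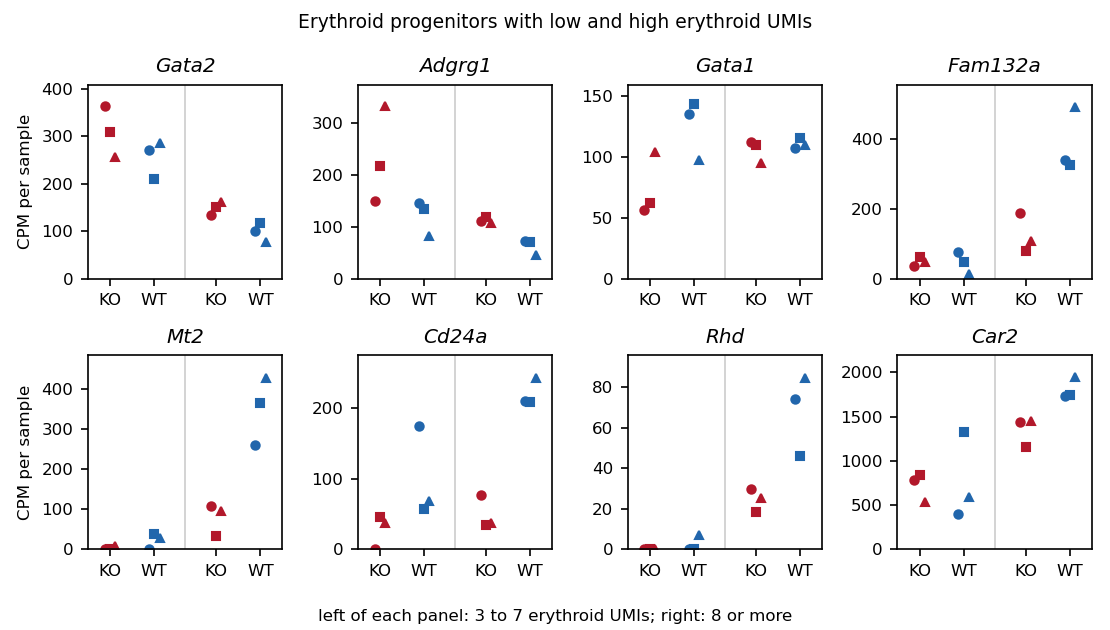
CPM per sample of 8 genes in low-erythroid cells (3 to 7 erythroid UMIs, left side of each panel) and high-erythroid cells (8 or more, right side), KO in red to the left of WT in blue. Gata2 and Adgrg1 are higher in low-erythroid cells and Fam132a, Mt2, Rhd and Car2 in high-erythroid cells, and in high-erythroid cells all KO points lie above the WT points for Gata2 and Adgrg1 and below them for Fam132a, Mt2, Cd24a, Rhd and Car2.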

How the data were processed

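Single-cell RNA of Lin- cells from 6 mice, 3 per genotype, was read from the 3′ end by 10x Chromium (version 2 kit), per the labels. For each sample the authors deposited UMI counts, whole numbers and not normalized, with cells in rows and genes in columns. The aligner, counter and build: not given in the sources used here. Deposited cells totalled 16155065 to 36248233 UMIs per sample. Libraries shared 11 to 48 cell barcodes in pairs, and no barcode was a selected cell in 2 libraries. Nothing pairs the samples, whose numbers follow accession order, and p-values measure the spread between these 6 samples.

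Of 18011 gene symbols, 17438 were matched to GENCODE M21 (GRCm38) and 289 to a RefSeq synonym. Counts of the selected cells were summed per sample and tested with edgeR 4.0.16 (quasi-likelihood, TMM factors, filterByExpr, Benjamini-Hochberg adjustment at 0.05) in R 4.3.3, without the 13 genes of the rule; the step was tested on simulated data. Differences from the other kept cells used an interaction term with the sample as a block, and limma 3.58.1 as an alternative. DESeq2 1.42.0, other factors and filters, the title prefix, doublet removal, thinning, the level of erythroid UMIs and each library left out were the other alternatives. Doublets stayed in; a simulated-doublet score (50 neighbours, 0.8% per 1000 cells) marked 6 KO and 24 WT selected cells. Binomial intervals are exact, at 95%, and cover counting error only. A comparison with erythroid-platelet cells needed 20 cells in each sample and was not run, as WT1 had 12 and WT3 16.

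The members and gene lists were chosen with earlier results of these data known. Named genes were the 12 largest changes in each direction that passed, did not overlap between genotypes and averaged at least 20 CPM, the 15 leading genes, up to 5 members of each list with the smallest p, and fixed erythroid regulators; predicted and sex-linked genes were not named, and some other genes are not reported here. Sums, shares and figures were made in Python 3.11.15 (pandas 2.3.3, numpy 2.4.6, scikit-learn 1.9.0, scipy 1.17.1, matplotlib 3.10.9).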

Additional observations from a re-analysis of the deposited data

Results flagged for a closer look

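In several of the genes with the largest changes, the KO effect in the erythroid progenitors differed from that in the other kept cells of the same samples by edgeR's interaction test. On the log2 scale the difference was -1.2 for Gstp1, -1.99 for Ctsl and -1.77 for Cd24a, each a deeper fall in the erythroid progenitors. It was 0.8 for Mxd4, 0.792 for Zyx, 0.883 for Mki67 and 0.854 for Bin2, each a larger rise there. With limma on each sample's difference none of them passed. The other kept cells pool all cell types outside the rule, erythroid-platelet cells among them. A deeper fall or larger rise is therefore not shown to be particular to these progenitors.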

How the results depend on the processing

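The count of 85 genes became 54 with DESeq2, 268 with no low-count filter, 8 with the prefix covariate, 21 in the XA samples only, 141 with doublets removed, 4 after thinning to 2000 UMIs (813 tested), 0 in cells with 3 to 7 erythroid UMIs and 23 in cells with no platelet UMI, an alternative added after seeing the data. Leaving out each library gave 29 (without WT3) to 86 (without KO2), and 38 without WT2. With relative log expression factors it was 81. The 135 genes whose effect differed from the other kept cells became 0 with limma and 48 (without WT2) to 125 (without KO3), with 74 without WT1 and 81 without WT3. Stag2 passed with no low-count filter (-0.92, edgeR adjusted p = 0.0111) and under no other alternative run. Every called gene tested kept its direction under each alternative except Car2, which reversed to 0.085 after thinning (18 of 19 kept it there). The alternatives reuse counts of the same cells, so a kept direction was largely fixed in advance. Of 78 named genes tested and not called, 24 passed with no low-count filter, 13 with doublets removed and 2 with DESeq2, and 20 passed under at least 1 alternative other than the filter. Lyz2, a monocyte gene not called (1.01), ranged from -1.01 without KO2 (edgeR adjusted p = 0.0476) to 1.57. The cause of these changes was not tested. Restricting to cells with few markers of other lineages was not run, since KO2 had none. No paired analysis was possible because the labels pair no samples. KO2 had 47 cells, which limits low genes most.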

Other observations

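The erythroid-platelet cells excluded by the platelet limit numbered 60, 22 and 30 in the KO mice and 12, 28 and 16 in the WT mice, so their levels are descriptions. Cd24a was at 65.4, 33.8 and 12.5 CPM in KO and 32.9, 231 and 348 CPM in WT, with WT1, the sample of 12 cells, inside the KO range. Gstp1 was at 21.4, 16.9 and 15.7 CPM in KO and 49.3, 119 and 84.8 CPM in WT, with no overlap. Ctsl was at 14.7, 4.23 and 12.5 CPM in KO and 41.1, 45.7 and 33.9 CPM in WT, also with no overlap.

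Tbc1d4, a Rab GTPase-activating protein, was under the 20 CPM minimum for named genes and was chosen after its values were seen. It had 26.4, 45.3 and 21.03 CPM in KO and 9.88, 6.55 and 4.001 CPM in WT (log2 fold change 2.23 ± 0.38, edgeR adjusted p = 0.0104), and its call was lost without WT3 (0.076).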
